A study of Mus musculus with 9 samples.

Results

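Il24 and 6 genes related to it by family and receptor use were followed across 9 arrays of Lewis lung carcinoma cells, a mouse lung cancer line (named LLC or 3LL) that carried a GFP label. The 7 genes were Il24, Il19, Il20, Il10, Il20ra, Il20rb and Il22ra1, and each had a named feature among the 19505 genes measured. Il24 was selected on its log2 signals in lung against subcutaneous and dish cells on these same arrays, and the other 6 were gathered around it by family and receptor use. The Il24 values, and the lung minus subcutaneous values of the other 6, are therefore given as a description with no test. The 3 groups held 3 arrays each: cells in a culture dish, cells from subcutaneous tumours and cells from lung tumours, each labelled as 7 days. All arrays carry the strain label C57/BL6 mice, and the series' design text names the lung group with the abbreviation BLM, which it does not spell out. No label tells if replicate arrays stem from different mice or dishes, and the spread behind each p-value may thus be technical. One labelled line gave all 9 samples.

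Interleukin-24, interleukin-19 and interleukin-20 are secreted cytokines of the interleukin-10 family, and their genes lie beside Il10 in one cluster on mouse chromosome 1. All 3 signal through a receptor made of the Il20ra and Il20rb chains, and interleukin-20 and interleukin-24 also through a receptor made of Il22ra1 and Il20rb. These receptors act through Janus kinases and mainly the transcription factor STAT3, which SOCS and PIAS proteins hold in check. Interleukin-24 is known for its production in injured or inflamed epithelium and for the death of tumour cells that received it in excess, while interleukin-10 itself restrains immune cells through a receptor made of Il10ra and Il10rb.

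Values were deposited on a log2 scale, and a gene was called above background on an array where it exceeded the 90th percentile of that array's negative control features, which lay between 7.20 and 7.73. Between 28.0% and 34.4% of genes passed this guide on each array. The hybridisation controls averaged 12.01 ± 0.15 on dish, 12.83 ± 0.11 on subcutaneous and 11.35 ± 0.35 on lung arrays (log2, SD, n = 3 each), and mean RNA integrity numbers were 8.50, 7.97 and 8.17. The part of the hybridisation signal in the results was not tested. With the RNA integrity number as a covariate the genes called in subcutaneous minus dish went from 2513 to 1280 and those called in lung minus dish from 1322 to 856. Of 5 epithelial genes checked against the carcinoma label, Krt8 was above background on 9 arrays and Krt18 on 5, while Krt19, Epcam and Cdh1 were not above background on any array.

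Il24 was above background on the 3 lung arrays and on none of the other 6. Its log2 signal was 12.21, 10.17 and 10.87 in lung, 7.16, 6.16 and 7.37 in subcutaneous and 6.60, 6.53 and 5.56 in dish cells. The lung arrays did not overlap with either other group, and the lowest lung value lay 2.79 above the highest of the other 6. Group means were 11.08 ± 1.04 in lung, 6.90 ± 0.65 in subcutaneous and 6.23 ± 0.58 in dish cells (SD, n = 3 each). The lung mean exceeded the subcutaneous mean by 4.18 (SE 0.48) and the dish mean by 4.85 (SE 0.48) on the log2 scale, and the subcutaneous mean exceeded the dish mean by 0.67 (SE 0.48). Subcutaneous and dish values overlapped, with dish replicates 1 and 2 above subcutaneous replicate 2.

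Because both dimmer groups lay under the background guide, the measured Il24 differences rest on signals with no reliable level, and a bound was computed with the mean guide of the dimmer arrays in place of their signal. Il24 was at least 11.9-fold higher in lung than in subcutaneous cells and at least 12.6-fold higher than in dish cells. With the 95th percentile as guide these bounds were 5.51-fold and 5.69-fold. On the log2 scale the bound against subcutaneous cells was 3.57 with all arrays and 3.01, 4.03 and 3.68 without lung replicates 1, 2 and 3. In bulk samples such as these, fewer cells that make a transcript and less of it per cell cannot be told apart.

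Against all 19505 genes, the lung minus subcutaneous difference of Il24 ranked 5th and its lung minus dish difference 8th. By the distance from the lowest lung array to the highest of the other 6 arrays it ranked 3rd, after the surfactant genes Sftpc (7.62) and Sftpa1 (4.26) and ahead of Cldn18 (2.53), a tight junction gene of lung epithelium. A lung minimum above every other array was found for 1145 genes, 5.87% of those measured. Detection on 3 lung arrays and on none of the other 6 was found for 76 genes, 0.390%. These ranks describe the values that led to the choice of Il24.

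**Figure D1:**
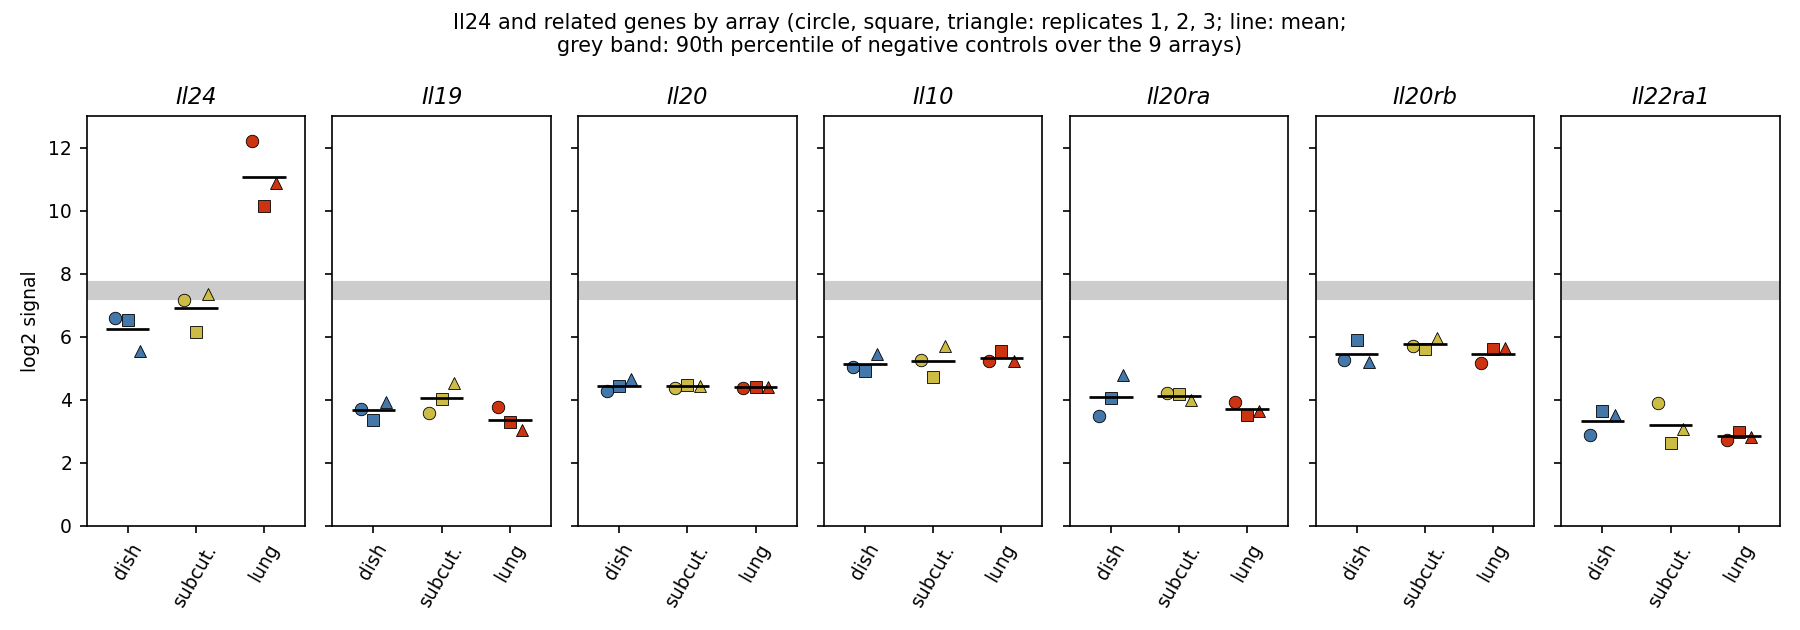
Log2 signal of Il24, Il19, Il20, Il10, Il20ra, Il20rb and Il22ra1 on the 3 dish, 3 subcutaneous and 3 lung arrays, with 1 point per array, lines at group means and a grey band for the range of the background guide. The Il24 lung points lie between 10.17 and 12.21, and the 54 values of the other 6 genes lie between 2.62 and 5.97, under the background guide of 7.20 to 7.73.

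The other 6 members stayed under the background guide on every array. Their 54 values ran from 2.62 to 5.97, and the closest lay 1.5 under the guide of its array. Not being above background is a common state here, found on all 9 arrays for 12062 genes, 61.8% of those measured. None of the 6 was called by limma (adjusted p < 0.05) against dish cells at either site, where the background rates of calls were 6.78% for lung minus dish and 12.9% for subcutaneous minus dish. The adjusted p-values ran from 0.398 to 0.992, and 0 of the 12 tests had an unadjusted p under 0.05. At signals this low the arrays bound the levels and do not show that the transcripts were absent.

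The cytokine genes next to Il24 were under background in lung, subcutaneous and dish cells alike. For Il19 and Il20 the 250 bases before the RefSeq transcription start are printed here because the genes sit in the same cluster as Il24 and were not above background where Il24 was. RefSeq windows were matched for 5 of the 7 members. Il24 and Il10 had no window, so their upstream bases were not searched for motifs. Capitals mark matches to the AP-1 motif TGANTCA or the STAT motif TTCNNNGAA, each of which reads the same on both strands. Of 32536 such windows in the RefSeq table, 6.73% held the AP-1 motif and 7.04% the STAT motif. The Il19 window (GRCm38.p6, chr1:130940116-130940365, minus strand) held 1 STAT match, 225 bases before the start, and the Il20 window (chr1:130911297-130911546, minus strand) held neither. A match describes letters and not a bound site.
Il19: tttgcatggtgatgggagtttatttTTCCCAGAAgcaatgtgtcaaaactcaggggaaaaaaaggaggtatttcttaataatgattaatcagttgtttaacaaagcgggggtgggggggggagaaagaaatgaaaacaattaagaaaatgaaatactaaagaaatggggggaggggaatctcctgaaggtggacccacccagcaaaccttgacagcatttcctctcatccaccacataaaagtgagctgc
Il20: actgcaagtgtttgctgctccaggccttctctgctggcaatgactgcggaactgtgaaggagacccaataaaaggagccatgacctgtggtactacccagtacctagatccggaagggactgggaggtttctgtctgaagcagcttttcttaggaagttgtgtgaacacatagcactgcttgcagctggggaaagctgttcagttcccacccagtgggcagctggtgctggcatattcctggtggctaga

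Il19, a cytokine of myeloid cells and keratinocytes, read 3.76, 3.29 and 3.04 in lung, 3.59, 4.01 and 4.54 in subcutaneous and 3.70, 3.35 and 3.94 in dish cells. Its lung minus dish difference was -0.30 (95% confidence interval -0.94 to 0.35, adjusted p = 0.611) and its subcutaneous minus dish difference 0.38 (-0.26 to 1.03, adjusted p = 0.475). The 3 groups of Il19 values overlapped. Il20, known from skin inflammation, read 4.37, 4.40 and 4.42 in lung, 4.37, 4.46 and 4.44 in subcutaneous and 4.28, 4.42 and 4.64 in dish cells. Its differences against dish were -0.05 (-0.52 to 0.41, adjusted p = 0.921) in lung and -0.02 (-0.49 to 0.44, adjusted p = 0.964) in subcutaneous cells. The 9 Il20 values lay within a narrow band with no order by group. Il10, the restraining cytokine, read 5.23, 5.55 and 5.23 in lung, 5.25, 4.73 and 5.72 in subcutaneous and 5.03, 4.90 and 5.46 in dish cells. Its differences against dish were 0.20 (-0.41 to 0.82, adjusted p = 0.732) in lung and 0.10 (-0.51 to 0.71, adjusted p = 0.879) in subcutaneous cells, and the groups overlapped.

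The 3 receptor chains were also under the background guide on all arrays. The Il20ra window is shown because this chain is needed by the first of the receptor pairs and its window (chr10:19712337-19712586, plus strand) held 1 AP-1 match, 164 bases before the start. Il22ra1 held 1 AP-1 match, 222 bases before its start, and Il20rb held neither motif.
Il20ra: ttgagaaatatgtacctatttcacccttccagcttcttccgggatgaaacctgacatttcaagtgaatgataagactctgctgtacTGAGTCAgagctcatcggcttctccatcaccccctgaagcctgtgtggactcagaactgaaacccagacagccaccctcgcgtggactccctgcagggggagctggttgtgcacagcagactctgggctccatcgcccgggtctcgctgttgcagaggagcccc

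Il20ra, the chain that pairs with Il20rb, read 3.91, 3.51 and 3.64 in lung, 4.21, 4.19 and 4.0 in subcutaneous and 3.47, 4.04 and 4.79 in dish cells. Its lung minus dish difference was -0.41 (-1.07 to 0.25, adjusted p = 0.473) and its subcutaneous minus dish difference 0.04 (-0.62 to 0.70, adjusted p = 0.964). The lung and subcutaneous values did not overlap, with a gap of 0.08, and dish values spanned both. Il20rb, the chain common to both receptor pairs, read 5.15, 5.61 and 5.63 in lung, 5.72, 5.60 and 5.97 in subcutaneous and 5.25, 5.91 and 5.21 in dish cells. Its differences against dish were 0.01 (-0.56 to 0.58, adjusted p = 0.992) in lung and 0.30 (-0.27 to 0.87, adjusted p = 0.528) in subcutaneous cells, and the groups overlapped. Il22ra1, an epithelial chain that also serves interleukin-22, read 2.72, 2.97 and 2.83 in lung, 3.89, 2.62 and 3.08 in subcutaneous and 2.87, 3.64 and 3.50 in dish cells. Its differences against dish were -0.50 (-1.20 to 0.20, adjusted p = 0.398) in lung and -0.14 (-0.84 to 0.55, adjusted p = 0.841) in subcutaneous cells. The largest lung minus subcutaneous difference among the 6, given as a description, was -0.68 for Il19.

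The genes around the cluster were examined next, taking the 8 measured genes on each side of it in the order of the RefSeq table (GRCm38.p6). In lung minus subcutaneous 4 of these 16 neighbours were called higher and 0 lower, where 9.21% of all genes were called higher and 5.79% lower. In lung minus dish 1 was called higher and 0 lower, against 4.81% and 1.97% of all genes, and in subcutaneous minus dish 0 were called higher and 2 lower, against 6.41% and 6.47%. Mapkapk2, the gene beside Il10 and a kinase that stabilises cytokine transcripts, read 14.65, 14.86 and 14.39 in lung, 13.01, 13.21 and 13.05 in subcutaneous and 13.56, 13.43 and 13.55 in dish cells. Every lung value lay above the other 6. Mapkapk2 was higher in lung than in subcutaneous cells by 1.54 (SE 0.22, adjusted p = 0.000886) and than in dish cells by 1.12 (adjusted p = 0.0105), and the second call was lost without dish replicate 2 (adjusted p = 0.0535).

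Fam72a read 10.25, 10.06 and 10.33 in lung, 8.16, 7.19 and 6.10 in subcutaneous and 10.14, 10.05 and 9.27 in dish cells. Its lung and dish values overlapped, and the subcutaneous values were the low ones, with lung minus subcutaneous at 3.06 (SE 0.42, adjusted p = 0.000606) and subcutaneous minus dish at -2.67 (adjusted p = 0.000984). The other calls among the neighbours were Dyrk3 (1.11, adjusted p = 0.0405) and Cd55 (1.35, adjusted p = 0.0301) in lung minus subcutaneous and Eif2d (-1.46, adjusted p = 0.00625) in subcutaneous minus dish. Cd55 was not above background on any array. Without subcutaneous replicate 3 the adjusted p was 0.14 for Dyrk3 and 0.0749 for Cd55, and without lung replicate 2 it was 0.126 and 0.0992, which left 2 neighbours called in each case. Dyrk3 also lost its call without dish replicate 2 (0.0578), subcutaneous replicate 2 (0.072) or lung replicate 1 (0.125), and Cd55 without subcutaneous replicate 1 (0.102) or lung replicate 3 (0.0923). Other settings that ended a call were the RNA integrity covariate for Eif2d (0.0754) and Dyrk3 (0.0746), quantile normalization (0.0982) and a fit of the compared groups alone (0.0695) for Dyrk3, and array weights for Cd55 (0.0691).

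**Figure D2:**
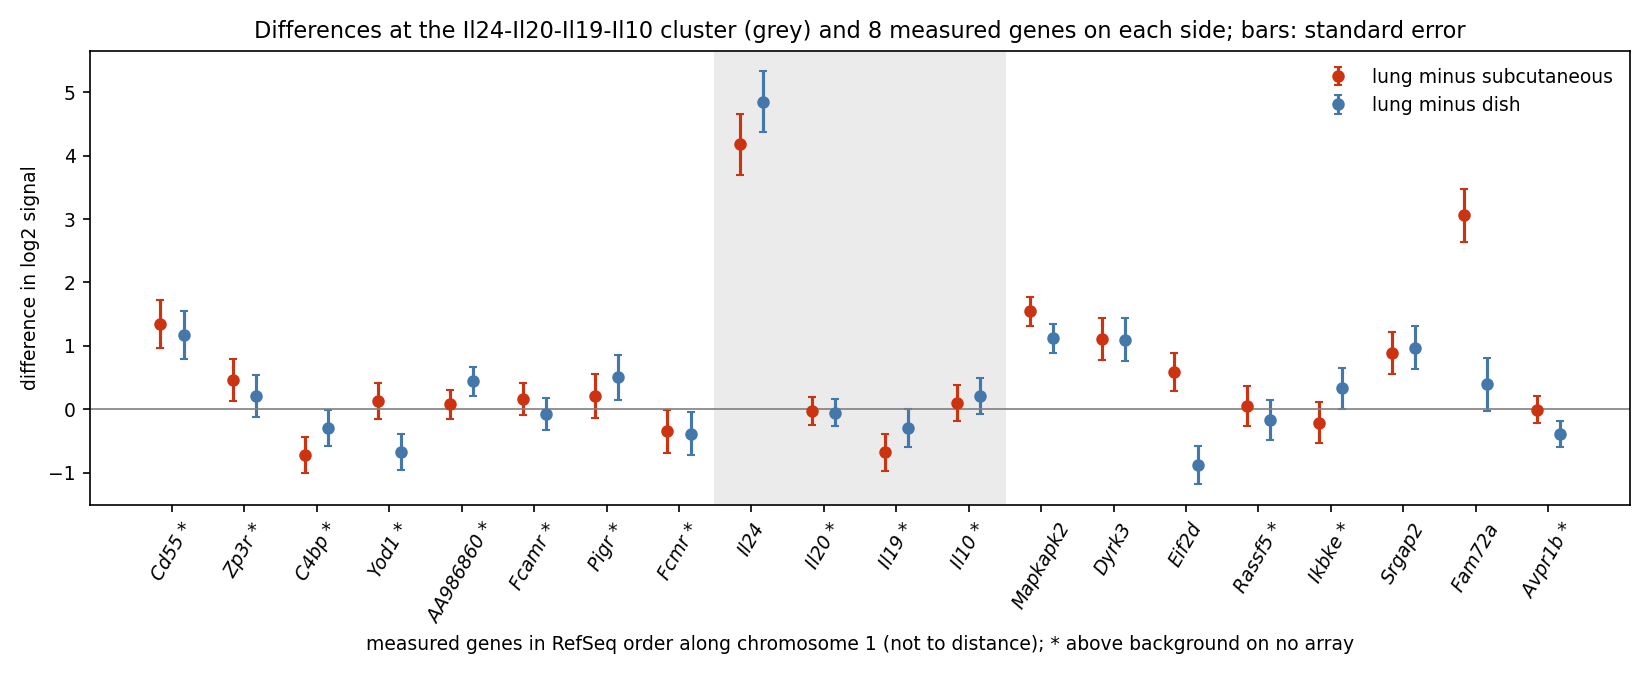
Log2 differences, with standard errors as bars, of Il24, Il20, Il19, Il10 and the 16 neighbouring genes in their order along chromosome 1, for lung minus subcutaneous and lung minus dish. Il24 stands at 4.18 in lung minus subcutaneous, while its cluster neighbours Il20, Il19 and Il10 lie between -0.68 and 0.10, and Mapkapk2 and Fam72a lie at 1.54 and 3.06.

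Beyond the members, 85 of 91 listed genes of the wider pathway were measured. Of these, 41 were above background on all 3 arrays of at least 1 group. The same held for 6310 of the 19505 measured genes, Il24 not counted, so the list was richer in detected genes. In lung minus subcutaneous 10 were called higher and 6 lower (18.8%, against 15.0% of all genes). In lung minus dish 14 were higher and 0 lower (16.5%, against 6.78%), and in subcutaneous minus dish 13 were higher and 2 lower (17.6%, against 12.9%). With quantile normalization the first split was 7 higher and 8 lower, and over all genes the share of lung minus dish calls that were higher was 54.5% in place of 71.0%. The list's median differences were 0.06, 0.15 and 0.06, beside -0.07, -0.07 and -0.01 over all genes. With only the genes above background on all 3 arrays of at least 1 group kept, 13, 13 and 20 pathway genes were called. Over all genes kept the counts were 2645, 1577 and 2510, in the same order of comparisons. The list's share was then below that over all genes in lung minus subcutaneous, and stayed above it in both comparisons with dish. Both comparisons with dish cells share the dish arrays. The pathway count fell to 4 in lung minus subcutaneous without lung replicate 1, and to 9 without dish replicate 2, subcutaneous replicate 3 or lung replicate 2 and 8 without subcutaneous replicate 1. It fell to 7 in lung minus dish without dish replicate 2 or 3, to 8 without lung replicate 1 and to 9 without lung replicate 2, and to 8 in subcutaneous minus dish without dish replicate 2.

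Among the related ligands on the list, 0 of 10 were called in any of the 3 comparisons by limma and 0 had an unadjusted p under 0.05. Il11 was above background on 1 array, lung replicate 1 (7.34), and the other ligands on none. Of 13 further receptor chains, 4 rose in lung and 5 in subcutaneous cells against dish, and 0 were called between the 2 tumour sites by limma (2 with an unadjusted p under 0.05). The shares over all genes called in either direction were 6.78%, 12.9% and 15.0% in the same order of comparisons. The lung count was 1 without dish replicate 2 or 3 and 2 without lung replicate 1 or 2, and the subcutaneous count was 3 without dish replicate 2 or subcutaneous replicate 2. Between the sites 1 chain was called without dish replicate 3 or subcutaneous replicate 3. Il10rb, the second chain of the interleukin-10 and interleukin-22 receptors, read 9.89, 9.50 and 9.77 in lung, 10.01, 10.32 and 9.59 in subcutaneous and 9.03, 8.50 and 7.98 in dish cells. Both tumour groups lay above the dish values. It rose by 1.47 in subcutaneous cells (adjusted p = 0.00546) and by 1.21 in lung cells (adjusted p = 0.0285). The lung call was lost without dish replicates 2 (0.0977) or 3 (0.116) and without lung replicates 1 (0.119), 2 (0.0528) or 3 (0.0577), and also with quantile normalization (0.0724) or RNA integrity as a covariate (0.0642). Its partner Il10ra was under background throughout (3.43 to 4.45).

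Ifnar1, a type I interferon receptor chain, read 8.04, 7.48 and 7.92 in lung, 7.80, 8.19 and 7.91 in subcutaneous and 6.49, 5.39 and 6.45 in dish cells. It rose by 1.71 in lung (adjusted p = 0.00624) and 1.86 in subcutaneous cells (adjusted p = 0.00143), by at least 0.39 and 0.54 against the background guide. Il6ra, the interleukin-6 receptor, rose by 2.79 in subcutaneous (adjusted p = 0.00107) and 2.12 in lung cells (adjusted p = 0.013). The lung call of Il6ra was lost without dish replicates 2 (0.0666) or 3 (0.0635) or lung replicate 1 (0.0507), and with the RNA integrity covariate (0.0501).

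Of 3 kinases measured, limma called 1 in lung minus subcutaneous, 0 in lung minus dish and 1 in subcutaneous minus dish. Over all genes the shares called were 15.0%, 6.78% and 12.9%. Jak1 was lower in lung than in subcutaneous cells (log2 difference -1.18, adjusted p = 0.0152, and 0.0517 without subcutaneous replicate 1). Its lung minus dish difference was -0.01 (adjusted p = 0.994) and its subcutaneous minus dish difference 1.17 (adjusted p = 0.0161). The call against dish was lost without dish replicates 2 (0.0771) or 3 (0.0628), without subcutaneous replicate 1 (0.0578) or with the RNA integrity covariate (0.0674). Stat3, the main transcription factor of these receptors, read 10.58, 10.43 and 9.49 in lung, 9.62, 9.13 and 9.33 in subcutaneous and 8.78, 8.34 and 7.96 in dish cells. The lung and dish values did not overlap, and subcutaneous values lay above the dish ones. Stat3 rose in lung against dish by 1.81 (SE 0.32, adjusted p = 0.00548). Its subcutaneous minus dish difference was 1.0 (adjusted p = 0.0568) and its lung minus subcutaneous difference 0.81 (adjusted p = 0.11), neither of them called.

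Among 16 inhibitors of the signal, 4 were higher in lung than in subcutaneous cells, 1 was higher in lung than in dish cells and 1 was lower in subcutaneous than in dish cells. Over all genes the shares called in these directions were 9.21%, 4.81% and 6.47%, and in either direction 15.0%, 6.78% and 12.9%. The 4 were 2 without dish replicate 2, subcutaneous replicate 3 or lung replicates 1 or 2, and the 1 in subcutaneous minus dish was 2 without subcutaneous replicate 2. Pias4, a SUMO ligase that acts on STAT proteins, read 8.93, 8.21 and 8.44 in lung, 6.12, 5.83 and 5.59 in subcutaneous and 6.53, 5.90 and 5.37 in dish cells. It was above background on the lung arrays alone. Pias4 rose by 2.67 against subcutaneous (SE 0.31, adjusted p = 0.000282) and by 2.59 against dish cells (SE 0.31, adjusted p = 0.000574), or by at least 1.02 and 1.10 against the background guide. Socs7, a SOCS family member, was higher in lung than in subcutaneous cells by 1.94 (SE 0.44, adjusted p = 0.0108) and was above background on 2 lung arrays. It was under background on every subcutaneous array and on lung replicate 3, and no bound against the guide could be given for it. Socs3, the feedback inhibitor that STAT3 induces, was under background throughout (4.33 to 5.17).

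Of 14 listed STAT3 targets, 3 were called in lung minus subcutaneous (2 higher, 1 lower), 3 in lung minus dish (all higher) and 2 in subcutaneous minus dish (1 higher, 1 lower), beside shares over all genes of 15.0%, 6.78% and 12.9%. Some of these calls were of genes above background on no array. They were Bcl3 and Saa3 in lung minus subcutaneous, Bcl3 and Pim1 in lung minus dish and Pim1 in subcutaneous minus dish. In lung minus subcutaneous 0 were called without lung replicate 1 and 1 without any single dish replicate or without subcutaneous replicate 3. In lung minus dish 0 were called without dish replicates 2 or 3 or lung replicate 1, and 1 without lung replicate 2. In subcutaneous minus dish 1 was called without any single dish replicate, subcutaneous replicate 3 or lung replicate 1, and 4 without lung replicate 3. Lcn2, an iron-binding acute phase protein, was higher in lung than in dish cells by 3.06 (adjusted p = 0.0156), or by at least 0.27 against the guide, and lost its call without dish replicates 2 (0.0618) or 3 (0.0656) or lung replicate 1 (0.0628).

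Of 13 regulators of the cytokine locus, 5 rose in lung and 5 in subcutaneous cells against dish, and between the tumour sites 1 was higher and 4 lower in lung. Over all genes 4.81% and 6.41% rose against dish, and between the sites 9.21% were higher and 5.79% lower in lung. The shares in either direction were 6.78%, 12.9% and 15.0%. Prdm1, called between the sites and in subcutaneous minus dish, was not above background on any array. Between the sites 1 was called without subcutaneous replicate 1 or lung replicate 1, 2 without subcutaneous replicate 2 and 3 without dish replicate 2 or subcutaneous replicate 3. Against dish 3 were called in lung without dish replicate 3 and 3 in subcutaneous cells without dish replicate 2. Fosb, a subunit of the AP-1 transcription factor, read 11.79, 13.93 and 10.03 in lung, 11.47, 11.01 and 10.27 in subcutaneous and 6.27, 6.0 and 5.26 in dish cells. Both tumour groups lay above dish. The means were higher than in dish cells by 6.07 in lung (adjusted p = 0.000455) and 5.08 in subcutaneous cells (adjusted p = 0.00043), or by at least 4.49 and 3.49. Junb, another AP-1 subunit, rose in lung against dish by 1.86 (adjusted p = 0.00712), and Jun rose in subcutaneous cells by 2.67 (adjusted p = 0.000502) and in lung by 1.89 (adjusted p = 0.0105; 0.0539 without dish replicate 3).

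Nfil3, a basic leucine zipper factor that acts on Il10 in immune cells, read 11.39, 11.11 and 11.13 in lung, 9.86, 10.44 and 9.96 in subcutaneous and 9.92, 9.71 and 9.82 in dish cells. Its lung values lay above the other 6. The lung mean was higher by 1.12 against subcutaneous (adjusted p = 0.00723) and by 1.39 against dish cells (adjusted p = 0.00456). Of 10 genes tied to cell death by interleukin-24, 2 were higher in lung than in subcutaneous cells and 0 were called in either comparison with dish by limma (2 in lung and 3 in subcutaneous cells with an unadjusted p under 0.05). Over all genes 9.21% were called higher in lung than in subcutaneous cells. Against dish 6.78% of all genes were called in lung and 12.9% in subcutaneous cells. The count of 2 death genes was 0 without subcutaneous replicate 1 or lung replicates 1 or 2, and 1 without dish replicate 2 or subcutaneous replicates 2 or 3. In lung minus dish 1 was called without dish replicate 3 or lung replicate 3, and in subcutaneous minus dish 1 without dish replicate 3, subcutaneous replicates 1 or 2 or lung replicates 1 or 3. The genes higher in lung than in subcutaneous cells were Hspa5, an endoplasmic reticulum chaperone (1.14, adjusted p = 0.0383), and Gadd45g, a stress-induced gene (1.80, adjusted p = 0.0195). Gadd45g lost its call without subcutaneous replicates 1 (0.0728) or 3 (0.0532) or lung replicates 1 (0.0941) or 2 (0.0709), and Hspa5 lost its call without dish replicate 2 (0.0552), subcutaneous replicates 1 (0.0968) or 2 (0.103) or lung replicates 1 (0.153) or 2 (0.13), and with the RNA integrity covariate (0.0547).

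**Figure D3:**
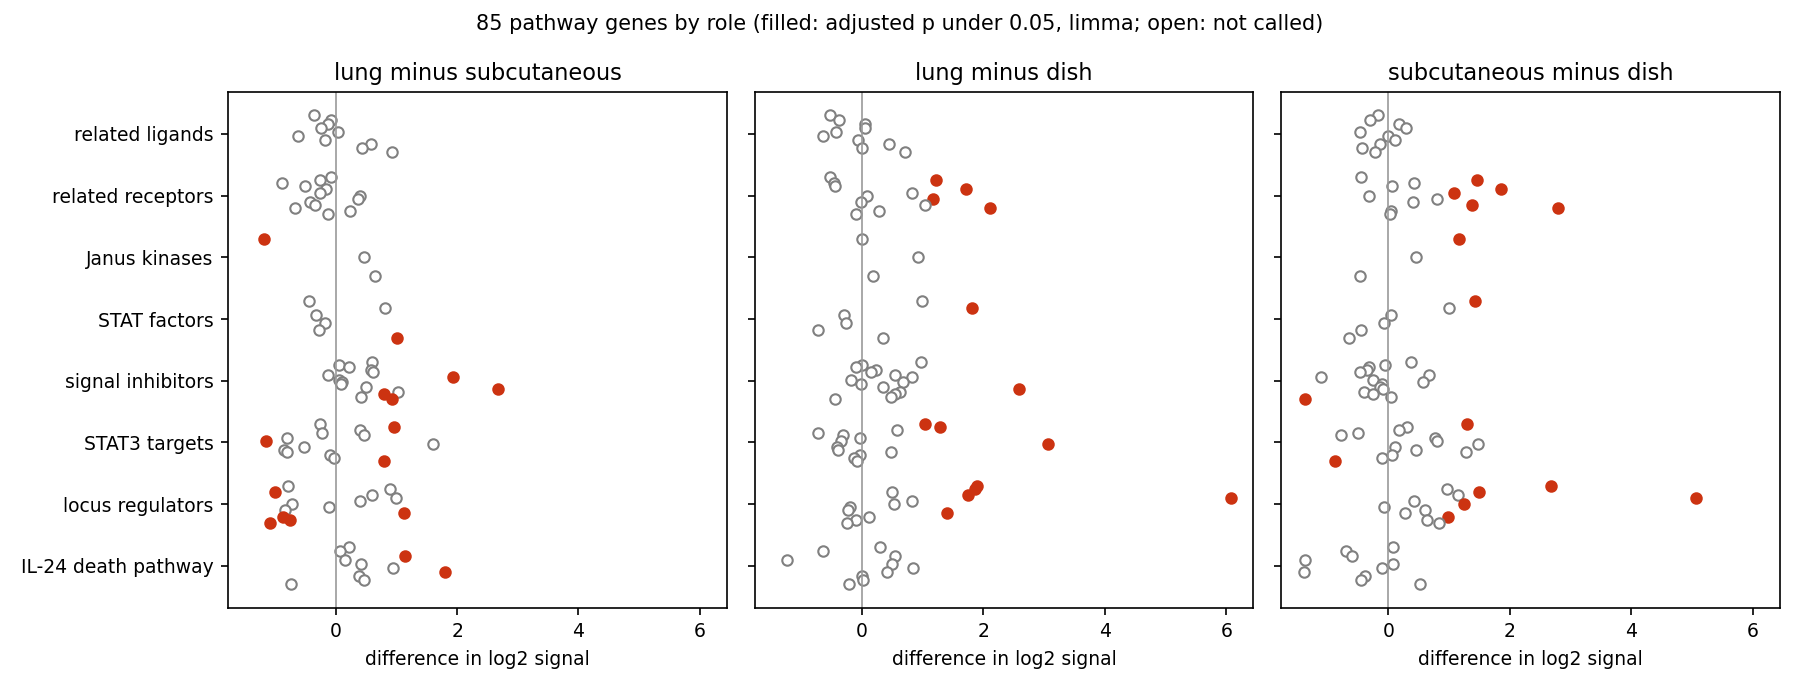
Log2 differences of the 85 pathway genes in 3 comparisons, by role, with genes called by limma filled and the others open. Pias4 stands at 2.67 in lung minus subcutaneous, Stat3 at 1.81 in lung minus dish, and Fosb at 6.07 and 5.08 against dish cells in lung and subcutaneous cells.

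The genes whose pattern was most like that of Il24 were found by Pearson's r over the 9 arrays among 6310 genes above background on all 3 arrays of at least 1 group. The points share arrays and fall into lung and other arrays, so r is given as a description only. The median r was 0.22, and 82 genes exceeded 0.9. The highest 10 were Scaf8, Rbm18, Ift20, Rbmx2, Pias4, Psma3, Plaur, Htra1, Sftpc and Opn3, with r from 0.96 to 0.98. Plaur, the urokinase receptor, read 13.31, 12.58 and 12.26 in lung and between 10.01 and 11.63 on the other 6 arrays, with a Spearman's rho of 0.98 with Il24. It was higher in lung by 1.46 against subcutaneous and 2.14 against dish cells. Htra1, a secreted serine protease, was higher by 1.71 and 2.32. The Plaur window (GRCm38.p6, chr7:24462233-24462482, plus strand) is shown because it was the one among 8 such genes with a RefSeq window that held a motif, an AP-1 match 69 bases before the start. Of all RefSeq windows 6.73% held the AP-1 motif and 7.04% the STAT motif, so a single match among 8 says little about these genes.
Plaur: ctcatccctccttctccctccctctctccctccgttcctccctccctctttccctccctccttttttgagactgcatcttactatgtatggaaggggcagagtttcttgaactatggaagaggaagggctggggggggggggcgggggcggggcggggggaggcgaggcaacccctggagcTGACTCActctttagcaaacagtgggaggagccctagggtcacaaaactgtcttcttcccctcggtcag

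**Figure D4:**
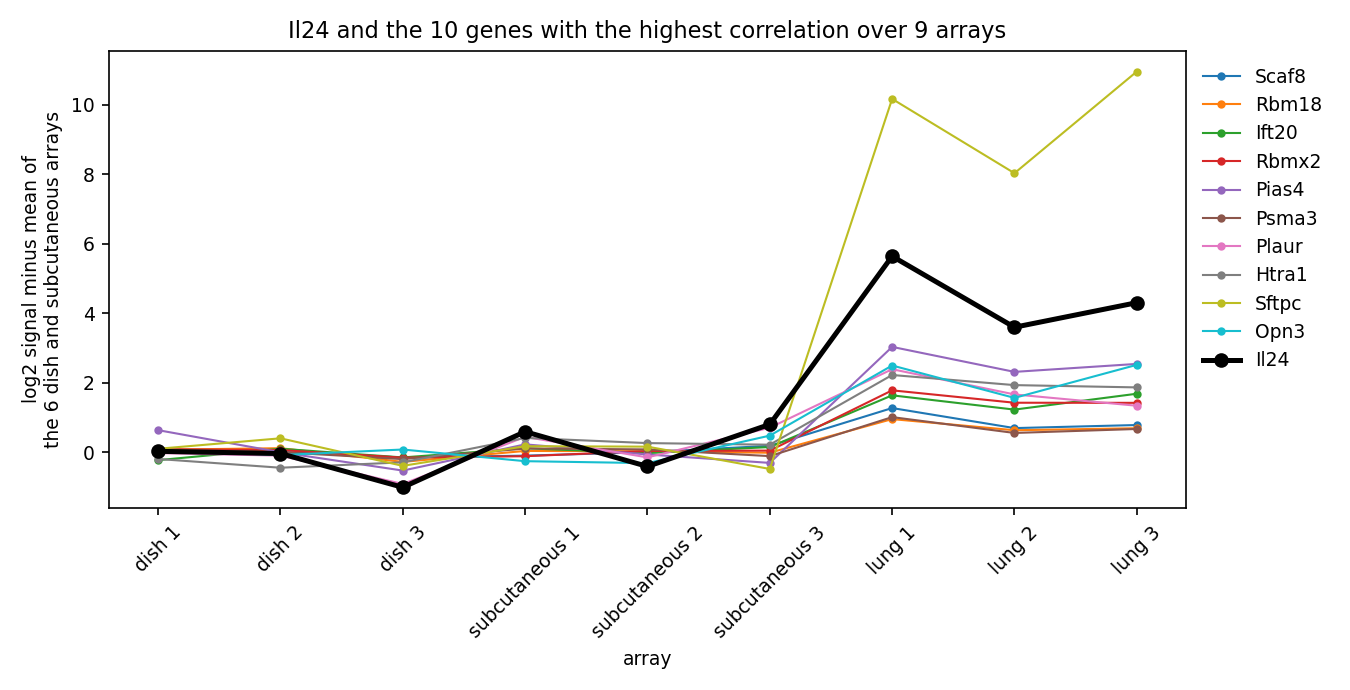
Log2 signal of Il24 and of the 10 genes with the highest Pearson's r with it on each of the 9 arrays, as a difference from the gene's mean over the 6 dish and subcutaneous arrays. The lung points of Il24 lie at least 2.79 above its other points, and Sftpc is the 1 gene whose lung points lie higher than those of Il24 on this scale.

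Marker genes of other cell types were read on the same arrays. The mean log2 signal of 7 alveolar type II genes was 7.83, 7.20 and 8.96 on lung replicates 1, 2 and 3, against 4.79 to 5.13 on subcutaneous and 4.81 to 5.10 on dish arrays, and 5 of the 7 were called higher in lung than in subcutaneous cells. Sftpc, the surfactant gene that defines these cells, read 15.59, 13.45 and 16.37 in lung. The mean of 6 airway secretory genes was 4.79, 5.93 and 9.09 in lung, with 0, 1 and 3 of them above background, and 4.41 to 5.04 on the other arrays. Il24 was highest on lung replicate 1 and lowest on lung replicate 2. Both of these marker means were highest on lung replicate 3. The alveolar type II mean was lowest on lung replicate 2, as was Sftpc, and the airway secretory mean was lowest on lung replicate 1. Without lung replicates 1, 2 and 3 the lung minus subcutaneous difference of Il24 was 3.62, 4.64 and 4.29. The part of lung epithelial cells in the Il24 signal was not tested.

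Most markers of the immune, endothelial, keratinocyte and fibroblast lists were under background on the lung arrays. Of 10 monocyte and macrophage genes measured, 2, 0 and 1 were above background on lung replicates 1, 2 and 3, their mean was 4.98 to 5.60 in lung, 5.08 to 5.14 in subcutaneous and 4.64 to 5.10 in dish cells, and Csf1r, Adgre1 and Itgam were above background on no array. Lyz2, a lysozyme gene shared by macrophages and alveolar type II cells, read 9.68, 6.32 and 10.04 in lung. On the lung arrays 0 of 5 T cell, 0 of 5 B and plasma cell, 0 of 5 neutrophil and 0 of 6 endothelial genes were above background. Of 6 mast cell genes, 1 was above background on lung replicate 1. Of 9 keratinocyte genes 1 was above background, Sbsn, on 8 arrays (9.30, 9.03 and 10.07 in lung), with Krt5 and Krt14 at background on all arrays. Fibroblast genes were above background in 3 of 6 cases on each subcutaneous array and in 2, 2 and 1 on the lung arrays. Dcn read 13.94, 12.15 and 10.53 in lung, 16.47, 17.09 and 16.37 in subcutaneous and 7.32, 6.99 and 6.85 in dish cells. Lum read 7.33, 7.51 and 6.38 in lung and 13.19, 13.92 and 12.48 in subcutaneous cells. Col1a1, Col1a2 and Col3a1 were above background on no array. The part of these cells in the differences of the pathway genes was not tested.

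**Figure D5:**
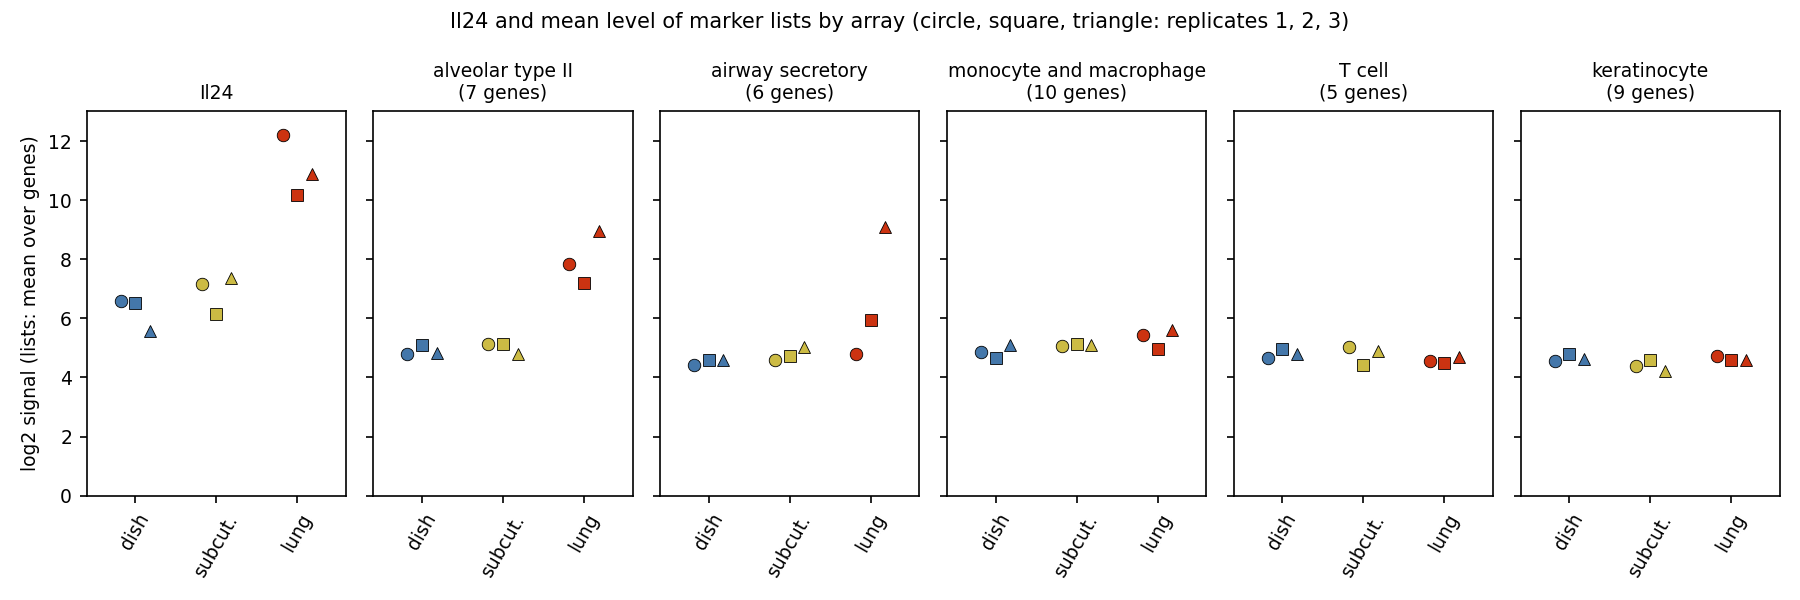
Log2 signal of Il24 and mean log2 signal of 5 marker lists (alveolar type II, airway secretory, monocyte and macrophage, T cell, keratinocyte) on each array, by group. The alveolar type II mean is 7.20 to 8.96 on lung arrays and at most 5.13 elsewhere, and the airway secretory mean runs from 4.79 to 9.09 within the lung group.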

How the data were processed

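The 9 arrays were 1-colour whole-transcript arrays of biotin-labelled total RNA, per the labels' protocols. The values are log2 signals, which the authors deposited as a table of 28846 rows and whose normalization is not given in the sources used here. Of its 22206 gene features, 19572 had 1 gene symbol in the platform annotation, and all of these matched RefSeq. Where a gene had several features (55 genes) the one with the highest mean was kept, which left 19505 genes. The 5222 negative controls gave the background guide. Group means were fitted with limma 3.58.1 (lmFit and eBayes, R 4.3.3) on all 9 arrays, with 6 residual and 7.08 prior degrees of freedom, two-sided, with Benjamini-Hochberg adjustment over all genes and a call at an adjusted p under 0.05. The fit was tested on simulated data.

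The members and gene lists were chosen with earlier results of these data known. Members were not tested in lung minus subcutaneous. Named genes were all members, called pathway genes (at most the 3 largest differences per role and comparison), 8 measured neighbours on each side of the cluster and the 10 genes with the highest r with Il24. Socs3, Il10ra, the genes by distance and the pathway genes named beyond that limit were chosen after their values were seen. Alternatives were quantile normalization, the mean feature, an intensity trend, array weights, RNA integrity as a covariate, a filter on dim genes, the 95th percentile as guide, fits of the compared groups alone, a replicate block and leaving out each array. The other 6 listed pathway genes were not analysed here. Promoter windows are from RefSeq, build GRCm38.p6. The number of arrays limits the precision.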

Additional observations from a re-analysis of the deposited data

Results flagged for a closer look

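Lung minus subcutaneous is the difference between the effects at the 2 tumour sites, in which the dish arrays cancel. Of the 16 pathway genes called there by limma, 8 were also called against dish cells at one of the sites or both. The comparisons share the lung or the subcutaneous arrays, and the same overlap was not computed over all genes. The 8 is therefore a count and not a result about the pathway. Higher in lung were Pias4 (2.67), Nfil3 (1.12), Bcl3 (0.97), Ptpn11 (0.93) and Birc5 (0.80), on the log2 scale. Lower in lung were Jak1 (-1.18), Jund (-1.0) and Prdm1 (-0.86). Against dish, Pias4, Nfil3 and Bcl3 were called in lung alone. The others were called against dish in subcutaneous cells alone: Ptpn11 (-1.38), Birc5 (-0.88), Jak1 (1.17), Jund (1.49) and Prdm1 (0.97). Some calls against dish were lost, in 7 of 18 alternatives for Birc5, 4 of 17 for Jak1 and 4 of 16 for Bcl3. Prdm1 lost its call against dish in 2 of 16, and Ptpn11 and Jund in 1 of 18 each. Neither Bcl3 nor Prdm1 was above background on any array. Pias4 and Nfil3 kept the lung minus subcutaneous call under every alternative that tested them, and Jak1 lost it in 1 of 17. Bcl3 lost it in 4 of 16 alternatives, with adjusted p-values up to 0.119, and Prdm1 in 5 of 16, up to 0.0946. Ptpn11 lost it in 8 of 18, up to 0.16, Birc5 in 11 of 18, up to 0.168, and Jund in 12 of 18, up to 0.149. The replicate block was among the losses of Birc5 (0.0521) and Jund (0.0539).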

How the results depend on the processing

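The Il24 differences kept their direction under each alternative run. Leaving out 1 array gave 3.62 to 4.64 for lung minus subcutaneous, 4.29 to 5.31 for lung minus dish and 0.33 to 1.04 for subcutaneous minus dish, which was 1.29 with RNA integrity as a covariate. Of the 6 other members 0 were called under any alternative that kept them, and the filter on dim genes removed all 6. With RNA integrity as a covariate the pathway counts were 8 in lung minus subcutaneous and 9 in subcutaneous minus dish, and the counts over all genes were 856 in lung minus dish and 1280 in subcutaneous minus dish. Fits of the compared groups alone called 9 pathway genes in lung minus subcutaneous, and array weights called 3039 genes in lung minus dish. Leaving out 1 array gave 4 to 18, 7 to 16 and 8 to 21 pathway genes for lung minus subcutaneous, lung minus dish and subcutaneous minus dish, and 1476 to 2928, 514 to 1442 and 1639 to 2738 genes in all. The cause was not tested. Of the pathway calls, 3 of 16, 6 of 14 and 6 of 15 held under every alternative that tested the gene. Arrays of the same number share only a number: the correlations of their deviations from the group means ran from -0.06 to 0.09 over 9 pairs. With the replicate block 2852, 1313 and 2475 genes and 14, 14 and 18 pathway genes were called, and the Il24 differences were 4.18, 4.85 and 0.67.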
